A study of Bos taurus with 50 samples.

Results

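SFRP2 (ENSBTAG00000018563), FXYD6 (ENSBTAG00000014354) and EDNRA (ENSBTAG00000013674) are 3 of the 18830 genes in the read count table of endometrium from lactating dairy cows. They were candidate genes of the endometrium of cows that had not yet resumed ovarian cyclicity at week 5 postpartum. They were chosen from earlier results of the same libraries. SFRP2 and FXYD6 were among the genes with the smallest P that were lower in cycling than in non-cycling cows at week 5. SFRP2 and EDNRA were among those with less RNA at week 9 than at week 5 in the non-cycling cows, and SFRP2 also led the genes for which this difference was larger in these cows than in the cycling cows. The values of the 3 genes in those comparisons are therefore descriptions without a test. All 3 genes passed the filter on low counts, as did 16120 genes in all.

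The cows were primiparous Holstein x Jersey crosses of a single farm. CycW5 cows had a corpus luteum and circulating progesterone (P4) at the week 5 biopsy (10 libraries at week 5 and 10 at week 9). NoCycW5 cows had no corpus luteum and no detectable P4 up to week 5 (12 and 11 libraries). CycNoP4 is the name used here for cows that were cycling but had low P4 at the week 5 biopsy (4 and 3 libraries), which the study left out of its own comparisons. Ovulation was synchronized between the biopsies in all 3 groups with GnRH, an intravaginal P4 insert and prostaglandin F2 alpha. The purpose was that all week 9 biopsies fall on the same day of the cycle, a day that the labels do not record. Each biopsy was a piece of whole endometrium from the uterine horn on the side of the corpus luteum or the largest follicle. The RNA of epithelium, stroma, vessels and immune cells was therefore measured together, and fewer cells of a type cannot be told apart from less RNA per cell. Libraries are not linked to cows in the labels, so the weeks were compared as unpaired groups although the study biopsied its cows at both. P-values then measure the spread between libraries.

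SFRP2 is a secreted frizzled-related protein that binds Wnt ligands outside the cell and modulates their access to frizzled receptors. Wnt signalling between stroma and epithelium shapes uterine glands, and several of its genes respond to ovarian steroids. FXYD6 is a member of the FXYD family, small single-pass membrane proteins that associate with the Na,K-ATPase and tune its transport of sodium and potassium. EDNRA is the type A endothelin receptor, a G protein-coupled receptor that binds endothelin-1 and mediates contraction of smooth muscle, in the uterus and in vessel walls.

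Levels are given as CPM (reads of a gene scaled to the TMM-normalized library size), as the mean ± SD over libraries. The libraries held 21592867 to 32813237 counted reads, with group medians of 26707392 to 29638073, and the 3 genes had at least 524 reads in each library. The labelled state of most libraries could be compared with list genes that differed strongly between the states. WNT11, FZD5 and ATP1B2 were the Wnt and Na,K-ATPase genes that were higher by at least 2 on the log2 scale both in the CycW5 cows at week 5 and in the NoCycW5 cows at week 9, against the NoCycW5 cows at week 5. In 4 libraries of CycW5 cows or of week 9, at least 2 of these 3 genes were at or below the highest NoCycW5 value of week 5 (3.86 CPM for WNT11, 4.70 for FZD5 and 28.9 for ATP1B2). These were CycW5 library 57 of week 5, CycW5 library 87 of week 9, and NoCycW5 libraries 76 and 91 of week 9. In library 57, for example, ATP1B2 was at 17.3 CPM, against 46.6 to 176 CPM in the other CycW5 libraries of week 5. In the remaining libraries of these groups and of the CycNoP4 cows at week 9 none of the 3 genes was in that range. Of the CycNoP4 libraries of week 5, library 58 had all 3 genes in the range and library 64 had FZD5 and ATP1B2 in it, while libraries 51 and 56 had only ATP1B2. These were kept throughout, since their label gives low P4 at that biopsy. Results are given with all libraries, and values without libraries 57, 76, 87 and 91 are added where they bear on a result. This way of finding the libraries was chosen after their values had been seen.

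The NoCycW5 cows at week 5 had the highest SFRP2 level of the 6 groups and the widest range. SFRP2 was at 453 ± 297 CPM (SD, n = 12), with a lowest value of 165 CPM in library 61, a median of 326 CPM and a highest value of 1007 CPM in library 55, a range of 6.11-fold. Libraries 55, 65 (882 CPM) and 68 (833 CPM) were well above the other 9, of which the highest was library 63 at 511 CPM. In the CycW5 cows at week 5 the level was 106 ± 43.7 CPM (n = 10), from 51.7 CPM in library 66 through a median of 96.0 to 213 CPM in library 52. Library 52 was the only CycW5 library of week 5 above any NoCycW5 library of that week. The 4 CycNoP4 libraries of week 5 were at 64.1 (library 64), 121 (library 56), 212 (library 51) and 376 CPM (library 58), thus spread over the ranges of both other groups.

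At week 9 the SFRP2 levels of the 3 groups lay on top of each other. The level was 64.9 ± 21.7 CPM in the NoCycW5 cows (n = 11), from 39 through a median of 62.2 to 114 CPM in library 91. It was 71.7 ± 26.5 CPM in the CycW5 cows (n = 10), from 53.4 through a median of 62.1 to 142 CPM in library 87. In the CycNoP4 cows libraries 79 and 94 were both at 49.8 CPM and library 88 was at 94.2 CPM. The highest value of both larger groups came from libraries 87 and 91, in which the genes named above were also at their week 5 NoCycW5 level. Without libraries 76, 87 and 91 the levels were 60.2 ± 16.0 CPM in the NoCycW5 cows (n = 9) and 63.9 ± 10.2 CPM in the CycW5 cows (n = 9).

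FXYD6 separated the NoCycW5 cows at week 5 from all other groups but CycNoP4. It was at 85.5 ± 18.6 CPM in the NoCycW5 cows at week 5 (n = 12), from 66.8 CPM in library 69 through a median of 79.0 to 131 CPM in library 65. The CycW5 cows at week 5 had 43 ± 9.97 CPM (n = 10), from 32.3 through a median of 40.02 to 62.8 CPM in library 57. All 10 CycW5 libraries were thus below all 12 NoCycW5 libraries. The 4 CycNoP4 libraries of week 5 were at 31.03 (library 56), 42.5 (library 51), 64.5 (library 58) and 89.1 CPM (library 64). Library 64, which had the lowest SFRP2 value of that group, had its highest FXYD6 value.

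At week 9 FXYD6 was at 42.3 ± 12.4 CPM in the NoCycW5 cows (n = 11), from 24.8 through a median of 38.8 to 64.3 CPM in library 91. It was at 39.9 ± 10.5 CPM in the CycW5 cows (n = 10), from 29.5 through a median of 35.2 to 57.7 CPM in library 92. The 3 CycNoP4 libraries were at 32.5, 42.2 and 47.4 CPM. The 2 highest NoCycW5 values of week 9 were those of libraries 91 and 76 (62.2 CPM), and without these libraries the highest was 49.8 CPM. The lowest NoCycW5 library of week 5 was above all 34 libraries of CycW5 cows at week 5 and of any group at week 9. Only 2 of the 16120 genes tested (0.0124%) had this property, FXYD6 and ENSBTAG00000013071, which has no symbol in the sources used here. FXYD6 was chosen on its difference between the states at week 5, which is part of this property, so nothing is read from its rarity. The margin was small for FXYD6, from 6.01 to 6.06 on the log2 CPM scale, and was 0.02 with the size factors of DESeq2, from 6.03 to 6.05.

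EDNRA was highest in the NoCycW5 cows at week 5 as well, with the CycW5 and CycNoP4 cows of that week at the same mean. The NoCycW5 cows had 71.5 ± 13.2 CPM (n = 12), from 47.2 CPM in library 44 through a median of 69.5 to 91.3 CPM in library 49. The CycW5 cows had 39.1 ± 13.6 CPM (n = 10), from 25.2 through a median of 35.2 to 60.8 CPM in library 57. The 4 CycNoP4 libraries formed a low and a high pair, with 23.6 (library 51) and 23.8 CPM (library 56) against 47.1 (library 64) and 62.6 CPM (library 58). Libraries 57, 59 (57.0 CPM) and 52 (52.6 CPM) were the CycW5 libraries of week 5 above the lowest NoCycW5 library of that week.

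At week 9 EDNRA was at 30.2 ± 8.99 CPM in the NoCycW5 cows (n = 11), from 19.8 through a median of 27.1 to 49.4 CPM in library 91. It was at 30.5 ± 7.12 CPM in the CycW5 cows (n = 10), from 17.9 through a median of 31.9 to 42.4 CPM in library 92. The CycNoP4 libraries were at 19.99, 25.5 and 45.3 CPM. Library 88 was the highest CycNoP4 library of week 9 for all 3 genes, and NoCycW5 library 91 was the highest of its group for all 3.

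**Figure D1:**
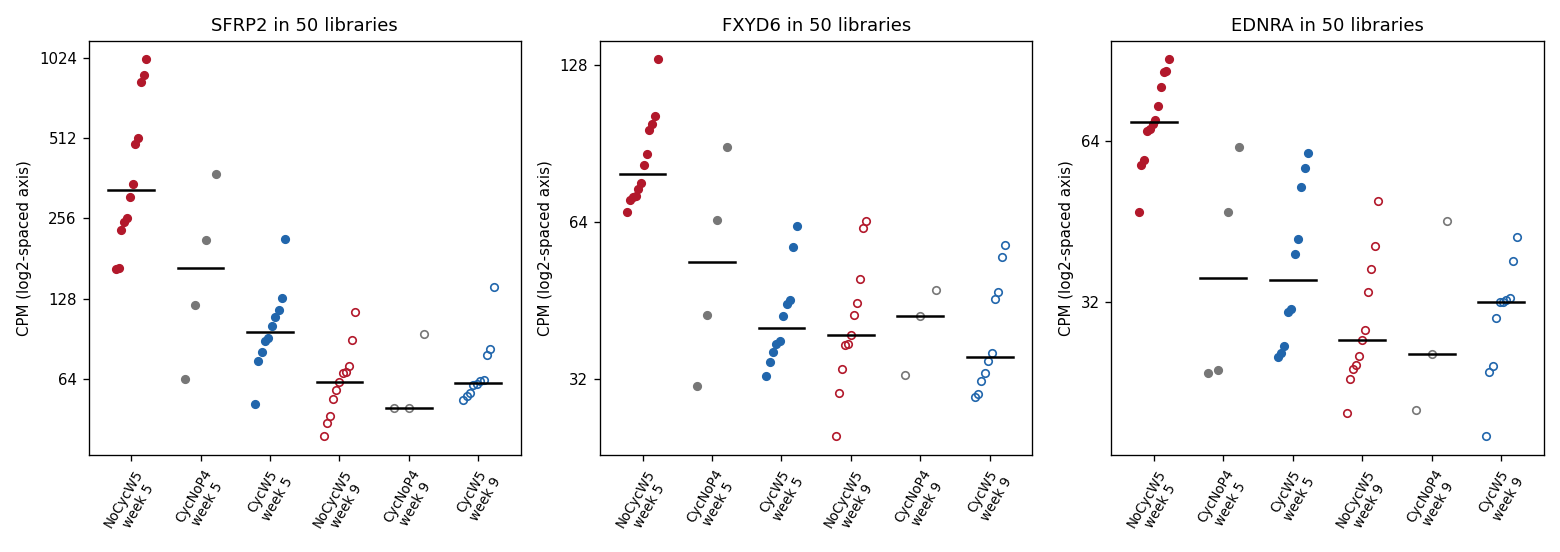
CPM of SFRP2, FXYD6 and EDNRA on log2-spaced axes in the 6 groups, with 1 point per library (filled for week 5, open for week 9) and a black line at the group median. The NoCycW5 libraries of week 5 reach 1007 CPM for SFRP2, 131 CPM for FXYD6 and 91.3 CPM for EDNRA, and the groups of week 9 overlap for each gene.

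Ordered by mean level, the groups ran the same way for the 3 genes down to the CycW5 cows at week 5. The order was NoCycW5, CycNoP4 and CycW5 at week 5, followed by the 3 groups of week 9. Below the CycW5 cows at week 5, no neighbours in the order differed by more than their pooled SD for any of the 3 genes. The largest such gap was 33.9 CPM for SFRP2, between the CycW5 cows at week 5 and at week 9, against a pooled SD of 36.15 CPM. At the upper end, the gap between NoCycW5 and CycNoP4 cows at week 5 was beyond the pooled SD for FXYD6 (28.7 against 20.3 CPM) and EDNRA (32.2 against 14.7 CPM), but not for SFRP2 (259.5 against 270.3 CPM). The gap between CycNoP4 and CycW5 cows at week 5 was beyond it only for SFRP2 (87.8 against 77.9 CPM). Group means accounted for 73.0%, 61.5% and 61.6% of the variance of log2 CPM of SFRP2, FXYD6 and EDNRA, where the median over all genes tested was 24.3%. These shares follow from how the genes were chosen. Within groups the SD on the log2 scale was 0.67 for SFRP2, 0.38 for FXYD6 and 0.43 for EDNRA, and 0.38 for the median gene.

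Setting the CycW5 against the NoCycW5 cows at week 5 asks which transcripts differ with luteal P4 present or absent before synchronization. SFRP2 was lower in the CycW5 cows with a log2 fold change of -2.10 (standard error, SE, 0.30), which is 4.29-fold. FXYD6 was lower with a log2 fold change of -0.99 (SE 0.16), and EDNRA with -0.87 (SE 0.18). Of the 120 pairs of a CycW5 and a NoCycW5 library, the CycW5 library was lower in 118 for SFRP2, in 120 for FXYD6 and in 115 for EDNRA. With P adjusted by the method of Benjamini and Hochberg (BH) and a limit of 0.05, 11.1% of all genes tested were lower in this comparison, and 0.062% were lower in all pairs of libraries, as FXYD6 was. Among the 836 genes with a symbol that were lower, the 3 genes held ranks 1, 5 and 38 by P. As the comparison was used to choose SFRP2 and FXYD6, nothing is read from these ranks.

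From week 5 to week 9 the NoCycW5 cows passed from no luteal phase to a synchronized cycle, and the levels of the 3 genes were lower at week 9. The log2 fold change was -2.80 (SE 0.30) for SFRP2, -1.02 (SE 0.16) for FXYD6 and -1.24 (SE 0.18) for EDNRA. The ranges of the weeks did not overlap for SFRP2 and FXYD6, and EDNRA was lower at week 9 in 131 of 132 pairs of libraries, the exception being library 91 of week 9 against library 44 of week 5. Of all genes tested, 16.1% were lower at week 9 by the BH limit and 0.403% had ranges of the weeks that did not overlap. In the CycW5 cows the log2 fold changes between the weeks were -0.56 (SE 0.30) for SFRP2, -0.11 (SE 0.17) for FXYD6 and -0.36 (SE 0.19) for EDNRA. The change in the NoCycW5 cows minus that in the CycW5 cows was -2.24 (SE 0.41), -0.91 (SE 0.23) and -0.89 (SE 0.26) on the log2 scale. The BH limit called 2.72% of all genes lower and 4.93% higher in this sense. The comparison at week 5 and the change between weeks share the 12 NoCycW5 libraries of week 5 and are not independent of each other.

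Without libraries 57, 76, 87 and 91 these descriptions were slightly larger for FXYD6 and EDNRA. The way of finding these libraries could leave out only libraries that resembled those of the NoCycW5 cows at week 5, and none of the latter. Larger differences follow in part from this, and nothing is read from them. For FXYD6 the log2 fold change between the states at week 5 became -1.07 (SE 0.15) and that between the weeks in the NoCycW5 cows -1.19 (SE 0.15). For EDNRA they became -0.96 (SE 0.18) and -1.37 (SE 0.18), and for SFRP2 they were -2.14 (SE 0.31) and -2.91 (SE 0.32).

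**Figure D2:**
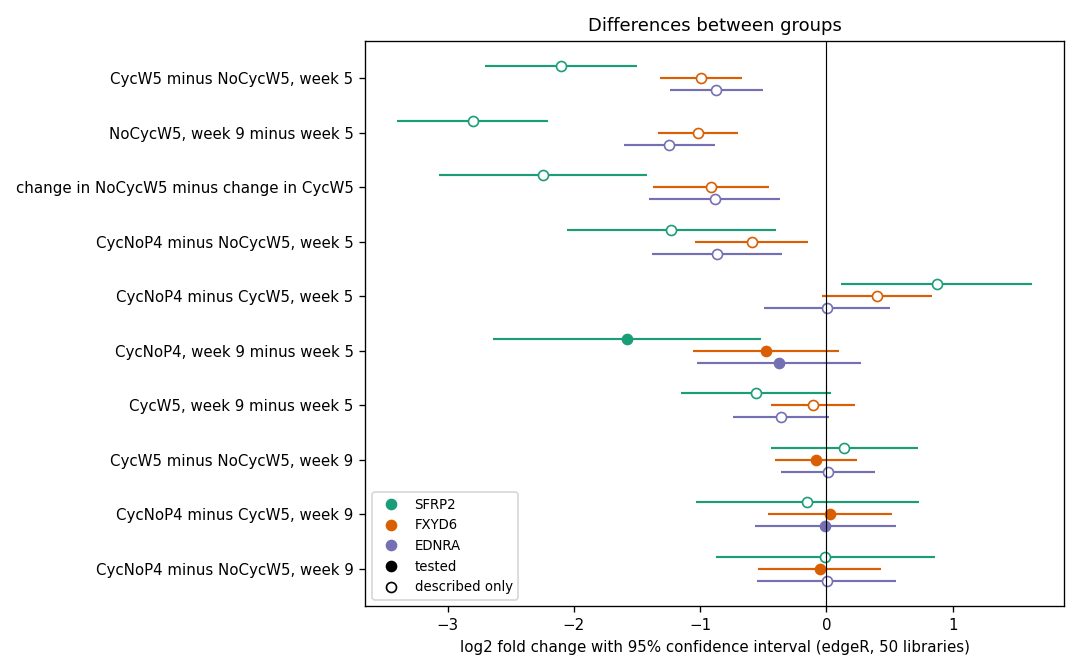
Log2 fold changes of SFRP2, FXYD6 and EDNRA between groups (x axis) with 95% confidence intervals as bars, for 10 comparisons (y axis), from the edgeR fit over 50 libraries. Filled points were tested and open points are descriptions; the 3 genes lie left of 0 in the first 4 comparisons, from -2.80 to -0.59, and between -0.15 and 0.14 in the comparisons at week 9.

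The CycNoP4 cows had ovulated but had little P4 at the week 5 biopsy, and none of their libraries was used to choose the genes. SFRP2 fell from week 5 to week 9 in these cows, by 1.58 on the log2 scale (SE 0.53, BH P = 0.0307, edgeR quasi-likelihood test). Of 16120 genes tested, 9.85% fell in this comparison by the same limit. The week 9 libraries were lower in 11 of 12 pairs, with library 64 of week 5 (64.1 CPM) below library 88 of week 9 (94.2 CPM). The call depended on the model and on single libraries. It was lost when only the 7 CycNoP4 libraries were fitted (BH P = 0.124), and without library 51, 58, 79 or 94 (BH P of 0.0629, 0.165, 0.119 and 0.115). The log2 fold change was -1.04 without library 58 and -1.87 without library 64 (BH P = 0.00829). In addition, the exact two-sided permutation test of log2 CPM gave P = 0.114, where 0.0571 was the smallest value possible. FXYD6 had a log2 fold change of -0.48 (SE 0.29, 95% confidence interval -1.06 to 0.10, BH P = 0.226), and EDNRA one of -0.38 (SE 0.32, -1.03 to 0.28, BH P = 0.418). Neither passed the limit.

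At week 5 the position of the CycNoP4 cows between the other groups differed from gene to gene, as a description. Against NoCycW5 cows the log2 fold change was -1.23 (SE 0.41) for SFRP2, -0.59 (SE 0.22) for FXYD6 and -0.86 (SE 0.26) for EDNRA. Against CycW5 cows it was 0.87 (SE 0.38) for SFRP2, 0.40 (SE 0.22) for FXYD6 and 0.01 (SE 0.25) for EDNRA. The difference between the genes was not tested, and with 4 libraries each of these values rested on few cows. Leaving out library 58 alone moved the SFRP2 difference from CycW5 cows to 0.33, and leaving out library 64 moved that of FXYD6 to 0.10.

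At week 9 no difference between groups was detectable for the gene and group pairs that could be tested. FXYD6 differed between CycW5 and NoCycW5 cows by -0.08 on the log2 scale (SE 0.16, 95% confidence interval -0.41 to 0.25, BH P = 0.958). Between CycNoP4 and CycW5 cows the difference was 0.03 for FXYD6 (BH P = 0.995) and -0.01 for EDNRA (BH P = 0.997), and between CycNoP4 and NoCycW5 cows it was -0.05 for FXYD6 (BH P = 0.972). The edgeR test called 0% of all genes in each of these 3 comparisons, while the unadjusted P was below 0.05 for 934, 1257 and 782 genes. By limma-voom with library weights the numbers of genes called were 1, 0 and 0, and by the Wald test of DESeq2 15, 19 and 13. As descriptions, the differences of SFRP2 at week 9 were between -0.15 and 0.14, and that of EDNRA between CycW5 and NoCycW5 cows was 0.01.

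At week 9, FXYD6 and EDNRA had the highest r of the 3 pairs of genes in both the NoCycW5 and the CycW5 cows, but not at week 5. The genes were chosen by P, which depends on the spread of each gene within groups, but not by their relations within groups. The 12 relations (3 pairs of genes in the 4 groups with at least 10 libraries) were tested by permutation with 100000 resamples. In the CycW5 cows at week 9, FXYD6 and EDNRA had r = 0.79 and rho = 0.90 (n = 10, permutation BH P of 0.0459 and 0.009), and r was 0.78 without the libraries farthest from the FXYD6 median, 92 and 87. This was the only relation of the 12 past the limit by both measures. By Pearson's r it was joined by SFRP2 and FXYD6 in the NoCycW5 cows at week 5 (r = 0.72, rho = 0.64, n = 12), SFRP2 with FXYD6 (r = 0.71, rho = 0.66) and with EDNRA (r = 0.70, rho = 0.72) in the CycW5 cows at week 5 (n = 10), and FXYD6 and EDNRA in the NoCycW5 cows at week 9 (r = 0.71, rho = 0.60, n = 11), each with a permutation BH P of 0.0459.

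The relations with SFRP2 that passed the limit had a lower r without the libraries farthest from its median. Leaving these out also narrows the range of SFRP2, so the part of single libraries cannot be read from it. Without the 2 libraries farthest from the SFRP2 median, r was 0.57 for SFRP2 and FXYD6 in the NoCycW5 cows at week 5 (without 55 and 65), and 0.58 and 0.64 for SFRP2 with FXYD6 and EDNRA in the CycW5 cows of that week (without 52 and 66). For FXYD6 and EDNRA in the NoCycW5 cows at week 9 it was 0.52 without libraries 91 and 76. Without libraries 57, 76, 87 and 91, the relation of FXYD6 and EDNRA in the CycW5 cows at week 9 had r = 0.84 (n = 9, exact permutation BH P = 0.0454), and that of the NoCycW5 cows at week 9 r = 0.52 (n = 9, exact permutation BH P = 0.359). In the NoCycW5 cows at week 5, where the levels were highest, SFRP2 and EDNRA had r = -0.24 and FXYD6 and EDNRA had r = 0.28 (n = 12, permutation BH P of 0.495 and 0.457). In the CycW5 cows at week 5, FXYD6 and EDNRA had r = 0.65 (n = 10, permutation BH P = 0.0822). Library 55, with the highest SFRP2, was at 66.8 CPM of EDNRA, below the median of that group. No test compared the relations between groups.

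**Figure D3:**
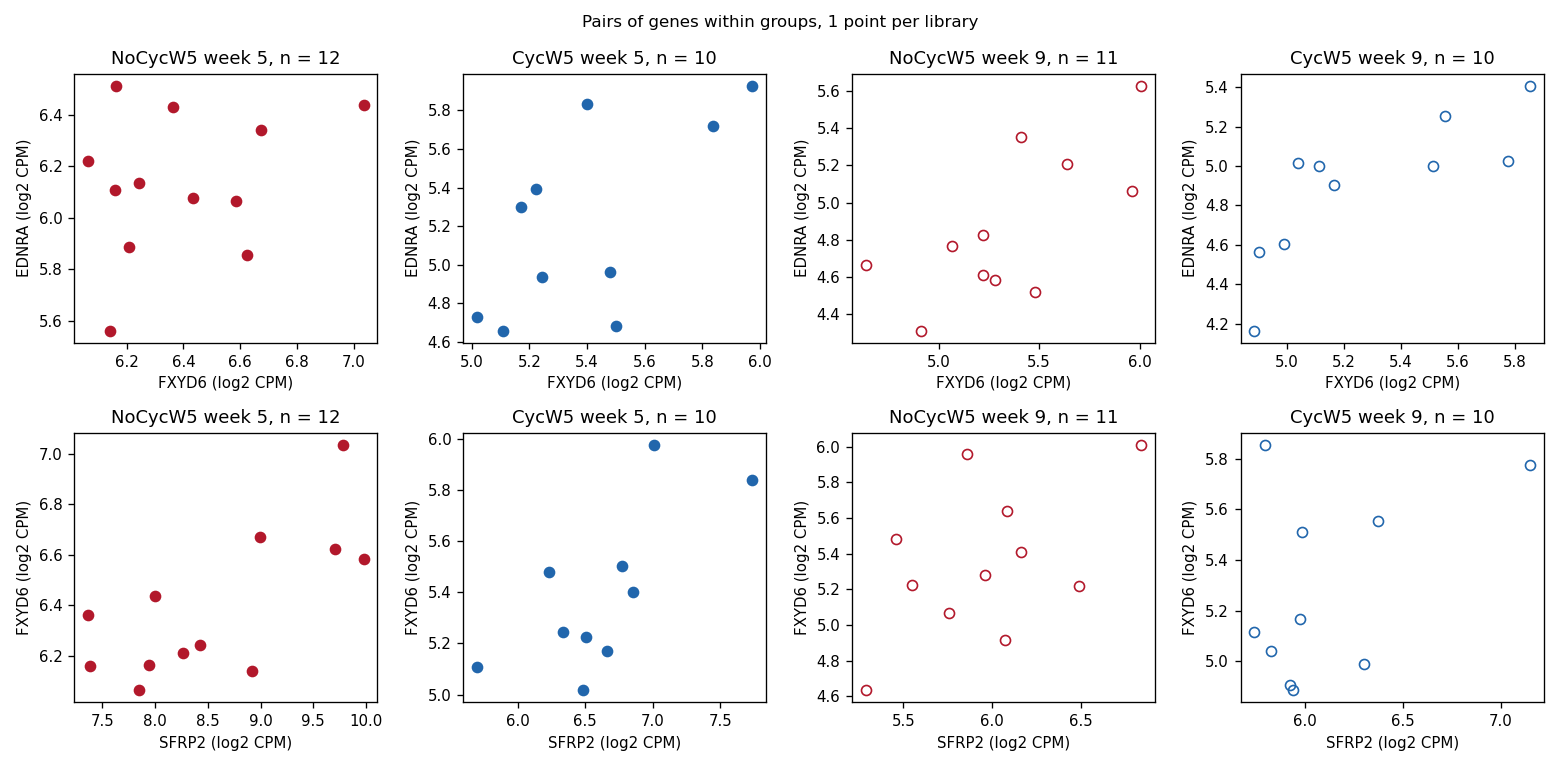
Log2 CPM of EDNRA against FXYD6 (upper row) and of FXYD6 against SFRP2 (lower row), 1 point per library, in the 4 groups with 10 to 12 libraries. EDNRA follows FXYD6 most closely in the CycW5 cows at week 9 (r = 0.79), and the range of SFRP2 is widest in the NoCycW5 cows at week 5.

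Over all 50 libraries, and in part through the differences between groups, r was 0.86 for FXYD6 and EDNRA, 0.79 for SFRP2 and FXYD6 and 0.74 for SFRP2 and EDNRA. Over the 50 deviations from the group means it was 0.67, 0.41 and 0.25. Among the 2249 other genes tested with a symbol, EDNRA ranked 3 by likeness to FXYD6 and FXYD6 ranked 2 by likeness to EDNRA over all libraries, and each ranked 4 for the other over the deviations. Only genes called in the study's own analysis carry a symbol here, and the ranks are among such genes. All points share the same libraries and normalization.

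The genes most like SFRP2 over all libraries were the ribosomal protein genes RPL14 (r = 0.86), RPS3 and RPL13, the translation elongation factor gene EEF1B2 and TBC1D1, a regulator of glucose transporter traffic. Over the deviations they were GNA14, a G protein alpha subunit (r = 0.76), SHANK1, the chloride channel gene ANO1, TES and the ribosomal protein gene RPS6 (r = 0.70). The genes most like FXYD6 over all libraries were FAM110B (r = 0.89), the translation initiation factor subunit EIF3F, EDNRA, RPS3 and CAMK2N1, an inhibitor of CaM kinase II. Over the deviations they were FAM110B, EIF3F, CAMK2N1, EDNRA and the DNA repair gene XRCC5 (r of 0.66 to 0.74). The genes most like EDNRA were FAM110B, FXYD6, the collagen gene COL14A1, COMMD1 and EIF3F over all libraries (r of 0.82 to 0.86), and FAM110B, CSGALNACT1 (chondroitin sulfate synthesis), CLEC11A, FXYD6 and C15orf52 over the deviations (r of 0.66 to 0.68). FAM110B was thus the leading gene for both FXYD6 and EDNRA on both scales. By Spearman's rho instead of r it led only for FXYD6 over all libraries, and the gene most like SFRP2 was TBC1D1 over all libraries and GNA14 over the deviations.

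Of 55 Wnt genes on the list that SFRP2 belongs to by function, 11 could be matched to an identifier. All had already been called in the study's own analysis, which used some of the same libraries, and their counts are no independent evidence. Against the NoCycW5 cows at week 5, the CycW5 cows had 5 of the 11 higher and 3 lower, where 14.5% of all genes were higher and 11.1% lower. The ligand WNT11 was at 2.06 ± 0.83 CPM in the NoCycW5 and 26.5 ± 18.1 CPM in the CycW5 cows (log2 fold change 3.68, SE 0.46, BH P = 1.34e-07), and the frizzled receptor FZD5 at 2.18 ± 1.23 and 13.6 ± 6.79 CPM (2.63, SE 0.37, BH P = 6.49e-07). The ligand WNT16 (1.26, BH P = 0.000144), the secreted inhibitor DKK1 (1.68, BH P = 0.00338) and RNF43, which removes frizzled receptors from the membrane (1.23, BH P = 0.00295), were also higher. The ligand WNT4 (-1.997, BH P = 0.000606) and the receptors ROR2 (-0.88, BH P = 0.000678) and FZD2 (-0.80, BH P = 0.0135) were lower in the CycW5 cows, like SFRP2. AXIN2 and LEF1, commonly used readouts of canonical Wnt signalling, had log2 fold changes of -0.36 and -0.10 (BH P of 0.108 and 0.60). The median log2 fold change of the 11 genes was -0.10, and that of all genes tested was -0.02.

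From week 5 to week 9 in the NoCycW5 cows, 4 of the 11 Wnt genes rose and 5 fell, where 18.4% of all genes rose and 16.1% fell. WNT11 (3.29), FZD5 (2.79), DKK1 (2.50) and WNT16 (1.57) rose, and WNT4 (-1.78), FZD2 (-1.25), ROR2 (-1.15), AXIN2 (-0.87) and ROR1 (-0.70) fell, the direction of SFRP2. All of these had a BH P of 0.0228 or less in edgeR. AXIN2 was at 55.5 ± 8.53 CPM at week 5 and 30.4 ± 9.83 CPM at week 9. The median log2 fold change of the list was 0.02, and that of all genes -0.02.

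In the CycNoP4 cows at week 5, WNT11 and FZD5 had log2 fold changes of 1.22 and 0.91 against the NoCycW5 cows (BH P of 0.121 and 0.160). Of the 11 Wnt genes only ROR2 was called in that comparison (log2 fold change -0.91, SE 0.27, BH P = 0.0197), where 9.92% of all genes were higher and 6.52% lower. Against the CycW5 cows, 2 of the 11 were higher, WNT4 (1.89, BH P = 0.0123) and AXIN2 (0.69, BH P = 0.0299), and 4 were lower, DKK1 (-2.74), WNT11 (-2.46), FZD5 (-1.72) and WNT16 (-1.69), with BH P of 0.00207 to 0.0219. Of all genes, 9.62% were higher and 8.29% lower in that comparison. ROR2 was at 69.0 ± 16.0 CPM in the NoCycW5, 36.8 ± 14.2 CPM in the CycNoP4 and 37.6 ± 13.7 CPM in the CycW5 cows at week 5. The CycNoP4 and CycW5 means were thus close together, as they were for EDNRA. From week 5 to week 9 in the CycNoP4 cows, DKK1 (4.35), WNT11 (2.77), WNT16 (2.46) and FZD5 (2.15) rose and WNT4 (-2.79) fell, with BH P of 0.000935 to 0.0163. Of all genes, 9.74% rose and 9.85% fell between these weeks.

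Against the NoCycW5 cows at week 5, FXYD6 was lower in the CycW5 cows of that week and the NoCycW5 cows at week 9. Both beta subunits of the Na,K-ATPase that could be matched, ATP1B1 and ATP1B2, were higher in these comparisons, where 14.5% and 18.4% of all genes were higher. Both had already been called in the study's own analysis, so their count is no independent evidence. They were 2 of the 9 genes of the list of other FXYD proteins and beta subunits, and no other FXYD gene was matched. The beta subunit is needed for the pump to reach the cell membrane. In the CycW5 cows at week 5, ATP1B2 (log2 fold change 2.99, SE 0.42, BH P = 9.93e-07) and ATP1B1 (0.71, SE 0.23, BH P = 0.0178) were higher than in the NoCycW5 cows. ATP1B2 and ATP1B1 also rose from week 5 to week 9 in the NoCycW5 cows, by 3.34 and 1.08. In the CycNoP4 cows at week 5, ATP1B2 was at 10.4 ± 5.52 CPM, against 13.8 ± 6.32 CPM in the NoCycW5 and 110 ± 56.4 CPM in the CycW5 cows. Neither gene was called between the CycNoP4 and the NoCycW5 cows at week 5, with log2 fold changes of -0.42 for ATP1B2 and 0.56 for ATP1B1 (BH P of 0.630 and 0.178). None of the 13 genes listed for the endothelin system could be matched, so ligand, type B receptor and converting enzymes are not analysed here.

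**Figure D4:**
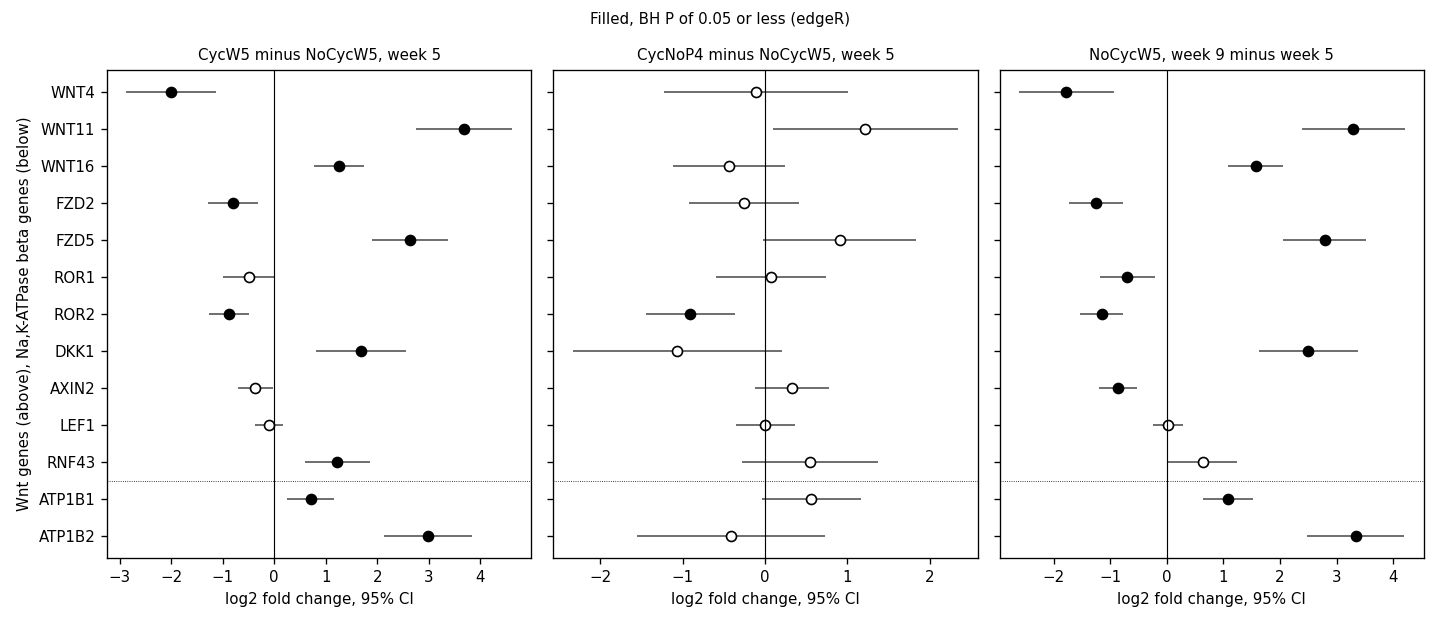
Log2 fold changes (x axis, 95% confidence intervals as bars) of the 11 Wnt genes and, below the dotted line, the 2 Na,K-ATPase beta subunit genes in 3 comparisons, with filled points at a BH P of 0.05 or less in edgeR. WNT11, FZD5 and ATP1B2 are highest against the NoCycW5 cows at week 5 in the left and right panels, at 2.63 to 3.68, and are not called in the middle panel for the CycNoP4 cows.

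Of the steroid and oxytocin receptors on the list, ESR1, ESR2 and OXTR could be matched. All 3 had already been called in the study's own analysis and are no independent evidence. ESR2, estrogen receptor beta, was higher in the CycW5 than in the NoCycW5 cows at week 5 (log2 fold change 2.72, SE 0.39, BH P = 1.05e-06), while ESR1 (-0.29, BH P = 0.353) and OXTR (-1.44, BH P = 0.102) were not called. From week 5 to week 9 in the NoCycW5 cows ESR2 rose by 2.42, and ESR1 (-0.67, BH P = 0.0174) and OXTR (-1.69, BH P = 0.0391) fell, the direction of SFRP2, FXYD6 and EDNRA. Of all genes, 18.4% rose and 16.1% fell in that comparison. OXTR was widely spread in the NoCycW5 cows at week 9, from 2.84 through a median of 9.10 to 162 CPM. At week 5 it was at 80.3 to 222 CPM in these cows, so the ranges of the weeks overlapped. In the CycNoP4 cows ESR1 (-1.16, BH P = 0.0435) and OXTR (-5.36, BH P = 0.0112) fell as well, where 9.85% of all genes fell.

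Markers of the cell types in the biopsy were measured beside these results, 10 of the 55 listed having an identifier. These 10 had already been called in the study's own analysis, which used some of the same libraries. Their counts are therefore no independent evidence, and the shares of all genes given beside them are not those of genes chosen in this way. Of 6 epithelial markers, 5 were higher in the CycW5 cows at week 5 (EPCAM, KRT8, CLDN3, CLDN4 and CLDN7) and MUC1 was not called (log2 fold change -0.54, BH P = 0.0716), where 14.5% of all genes were higher. Their summed level was 351 to 631 CPM in the NoCycW5 cows at week 5, with a median of 497, against medians of 785 in the CycNoP4 and 928 in the CycW5 cows of that week and 960 to 1229 in the groups of week 9. The stroma marker PDGFRA, the only one of 10 with an identifier, was at 489 ± 109 CPM in the NoCycW5, 444 ± 201 in the CycNoP4 and 465 ± 135 in the CycW5 cows at week 5 (CycW5 against NoCycW5 log2 fold change -0.07, SE 0.17, BH P = 0.787), and at 598 ± 127 CPM in the NoCycW5 cows at week 9. Of 3 endothelial markers, VWF (-0.81, BH P = 0.00154) and CDH5 (-0.44, BH P = 0.0201) were lower in the CycW5 than in the NoCycW5 cows at week 5, and ESAM was not called (-0.43, BH P = 0.0508), where 11.1% of all genes were lower. Markers of smooth muscle, pericytes, leukocytes and dividing cells had no identifier. At week 5 the called endothelial markers thus differed in the direction of the 3 genes and the called epithelial markers in the opposite one. From week 5 to week 9 in the NoCycW5 cows, 5 epithelial markers rose (18.4% of all genes) and 1 endothelial marker fell (16.1%). This was VWF (-0.63), while CDH5 (-0.10) and ESAM (-0.26) were not called. Between the weeks in the CycNoP4 cows, 1 epithelial marker rose (9.74% of all genes) and no endothelial marker was called. The part of the cell types in the results was not tested.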

How the data were processed

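Endometrial RNA of 50 biopsies was sequenced (stranded mRNA libraries, single-end). After trimming, the authors mapped reads to UMD3.1 (Hisat2) and assigned them to Ensembl genes (FeatureCounts). The deposited table holds the raw counts. The submitters' processing notes also name StringTie and edgeR. Whether strand was used in counting is not given in the sources used here, so reads of overlapping genes may not be told apart.

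Groups came from the labels. Counts were fitted with edgeR 4.0.16 in R 4.3.3 (TMM, filterByExpr, 6 group means, robust quasi-likelihood test), with BH adjustment over 16120 genes and a limit of 0.05. The fit was tested on simulated data. Log2 CPM used a prior count of 2. Relations were tested by permutation in SciPy 1.17.1. Cow, microbiota and batch were not fitted. Symbols came from 2321 identifier and symbol pairs in the study's supplementary tables, so the lists could be matched only in part. Some listed genes are not reported here. No sequence or coordinate was used. Named genes were the 3 genes, of each list the 4 genes with the smallest BH P in each direction plus AXIN2, LEF1, ATP1B1, ESR1 and OXTR, the markers, and the 5 genes most like each gene by r. The 3 genes and the lists were chosen with earlier results of these data known. Alternatives were DESeq2 1.42.0 (size factors and Wald test), limma-voom (limma 3.58.1) without and with library weights, no filter or a stricter one (10 or more libraries with 1 CPM), a fit of the compared groups only, and each library left out in turn.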

Additional observations from a re-analysis of the deposited data

Results flagged for a closer look

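Of 9 combinations of a gene and a group of 4 to 10 libraries, 2 held a library far from the others by Dixon's criterion. It was applied to CPM and not to log2 CPM. Chance alone meets it in about 1 of 20 if values are normally distributed, and the rate for CPM is not known. Both concerned SFRP2 in CycW5 cows, library 52 of week 5 at 213.4 CPM, where the next library was at 129 CPM, and library 87 of week 9 at 141.9 CPM, where the next was at 82.8 CPM. In library 87, WNT11, FZD5 and ATP1B2 were all in the range of the NoCycW5 cows at week 5. In library 52 none of them was, but its ATP1B2 level of 46.6 CPM was the next to lowest of its group after library 57.

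For 11 of the 26 list genes tested, the NoCycW5 and the CycW5 cows changed unequally between the weeks by the edgeR test of the difference itself, which called 4.93% of all genes higher and 2.72% lower. The change in the NoCycW5 cows minus that in the CycW5 cows was 3.53 on the log2 scale for WNT11, 2.80 for ATP1B2, 2.56 for FZD5, 2.47 for ESR2, 1.24 for WNT16 and -1.86 for WNT4. It was 2.35 for CLDN4, 2.02 for CLDN7, 1.81 for CLDN3, 0.66 for KRT8 and -0.98 for VWF. These genes were all among those the study had called, and the NoCycW5 libraries of week 5 enter each value.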

How the results depend on the processing

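No paired analysis was possible because the numbers given to the libraries within a group only follow their order in the labels, and libraries are not linked to cows. Covariates from stroma and epithelium scores were not run, since fewer than 80% of the listed markers have an identifier. Over 7 other settings, a permutation test for the tested genes and 50 fits without a library each, the fold changes of SFRP2, FXYD6 and EDNRA between CycW5 and NoCycW5 cows at week 5, and between the weeks in the NoCycW5 cows, stayed negative and moved by less than the SD between libraries of a group on the log2 scale (0.67, 0.38 and 0.43). With limma-voom and library weights those of SFRP2 were -1.66 and -2.44. The fold change of SFRP2 in the CycNoP4 cows lost its call when only the compared groups were fitted (-1.60) and in the exact permutation test (-1.36), and ranged from -1.98 without library 88 to -1.04 without library 58. In the CycNoP4 cows at week 5 against the NoCycW5 cows, the number of Wnt genes called, 1, was 3 in the fit of the compared groups, 2 without libraries 57, 76, 87 and 91, and 0 to 1 with a library left out, being 0 without library 51 or 56. The number of Na,K-ATPase beta subunit genes called, 0, was 0 to 1 with a library left out, being 1 without library 64. Between the weeks in the CycNoP4 cows, 5 Wnt genes were called, and 3 to 5 with a library left out, with 3 without library 79 or 94. Without libraries 57, 76, 87 and 91, which were chosen after seeing the data, the relations of SFRP2 with FXYD6 (r = 0.75) and EDNRA (r = 0.68) in the CycW5 cows at week 5 and of FXYD6 with EDNRA in the NoCycW5 cows at week 9 (r = 0.52) were past the limit no longer. The causes were not tested. By Spearman's rho, 1 of the 5 genes most like SFRP2 over all libraries and 3 over the deviations were again in the leading 5, 3 and 3 for FXYD6, and 2 over all libraries for EDNRA. Over the deviations, CSGALNACT1, CLEC11A, FXYD6 and C15orf52 stayed in the leading 5 for EDNRA, and FAM110B did not. With few CycNoP4 libraries, differences of the size of the FXYD6 and EDNRA intervals could not be detected.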
